A study of Mus musculus with 9 samples.

Results

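Genes that differed from control alike in stressed mice and in stressed mice that ran were examined by pooling the libraries of both groups against the unstressed controls. RNA from the medial prefrontal cortex (mPFC) of mice had been sequenced in 9 libraries of 3 groups, with 3 libraries in each. The control group is labelled No-stress, the CUS model group is labelled Stress, CUS standing for chronic unpredicted stress, and the running model group is labelled exercise. The series text places the running in mice that had been exposed to the stress, so the 6 libraries of the CUS and running models are called stress-exposed here. All 9 libraries carry the terms 4week and week8, whose meaning is not given in the sources used here, and neither are the strain, sex and age of the mice or the kind of running. Whether the libraries are from separate animals is not stated, so the spread that p-values measure may be partly technical.

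A gene entered the comparison when it had a symbol and at least 0.5 FPKM (a fragment count scaled by transcript length and library size) in at least 3 of the 9 libraries, which kept 14013 of 35125 genes and all 9 libraries. Of the kept genes, 13144 reached 0.5 FPKM in all 9 libraries, and 140 did so in exactly 3. Among those 140 the highest mean levels belonged to Casq1, S100a8 and Myl2, at 1.24, 1.06 and 0.65 FPKM. Among the 185 genes that reached it in exactly 2 libraries, and were not kept, they belonged to Sftpb, Scgb1a1 and Myoz1, at 1.59, 1.35 and 0.96 FPKM. A gene can also be kept through 1 group alone, and such a gene had to differ from the other groups. This held for 7 genes through the controls (among them Apoa1, Erfe and Gm36327), for 2 through the CUS model and for 5 through the running model.

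The medial prefrontal cortex takes part in the control of mood and of the hormonal stress response. Chronic unpredictable stress is a standard way of producing depression-like behaviour in rodents, and voluntary or forced running is studied as a treatment of it. Stress hormones act on the cortex through corticosteroid receptors, which switch on target genes in neurons, glia and blood vessels, and neuronal firing switches on the immediate early genes. In bulk tissue, fewer cells of a type and less RNA per cell cannot be told apart.

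Several libraries stood apart. Transcripts of skeletal muscle (14 genes, among them Acta1, Ckm and Myh4) summed to 554.5 FPKM in control replicate 1 and to between 10.6 and 43.3 in the other libraries, and each of the 14 was highest in control replicate 1. Transcripts of airway and alveolar epithelium (6 genes, among them Sftpb and Scgb1a1) summed to 24.1 and 12.1 FPKM in running replicates 1 and 3 and to at most 1.34 elsewhere. Both lists were chosen after values had been seen. Control replicate 3 had 212 FPKM of Ttr, a transcript of the choroid plexus, against 5.65 to 38.8 in the others, and the highest level of myelin genes. In CUS replicate 3 the FPKM values summed to 423257, against 370441 to 393663 in the others, and its mean Pearson r across genes with the other libraries was 0.987. Cortical identity was present throughout, since Slc17a7 and Camk2a, markers of excitatory cortical neurons, lay at 696 to 768 and 824 to 1029 FPKM.

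Few single genes passed the test across all genes. With limma and Benjamini-Hochberg adjustment over the 14013 genes, 2 were called at an adjusted p under 0.05, which is 0.0143% of those tested. Serinc2, which codes for a membrane protein of the serine incorporator family, rose, and the predicted gene Gm36327 fell. Gm36327 was kept through the controls alone, so it had to differ from the other groups. At an adjusted p under 0.1 there were 7 genes (0.05%), the further ones being Gm2506, Kcng1, Per2, Fam43b and Ninl. An unadjusted p under 0.05 was reached by 1428 genes (10.2%), of which 711 (5.07%) lay above control and 717 (5.12%) below. The values of the 6 stress-exposed and 3 control libraries did not overlap for 669 genes (4.77%), of which 375 were higher and 294 lower. The median log2 difference of all genes was 0.0036, and 51.5% of genes lay above 0, against 55.9% in CUS and 43.8% in running alone. In the plot of all genes the 20 genes named by rule lie between -0.76 and 0.76.

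**Figure D1:**
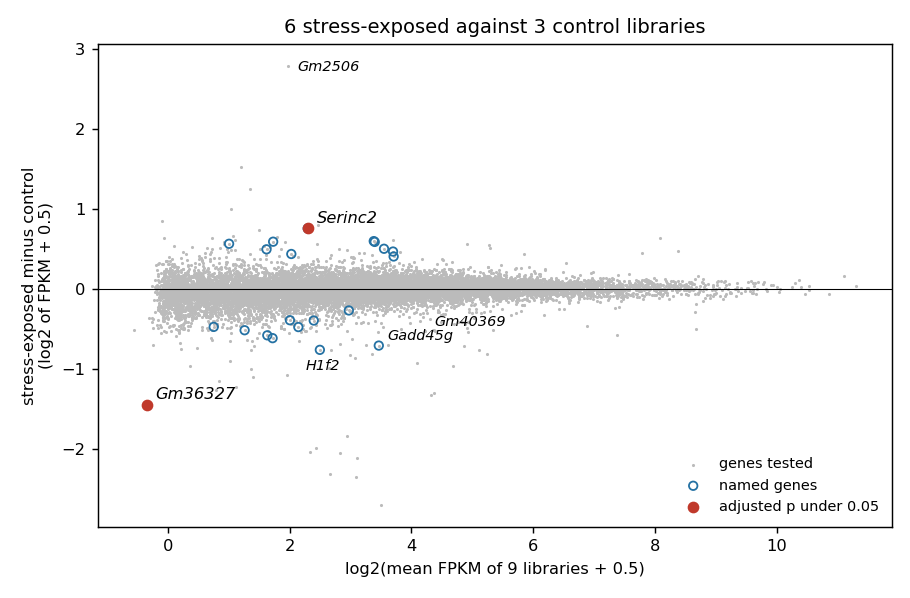
Log2 difference between the 6 stress-exposed and the 3 control libraries (vertical axis, log2 of FPKM + 0.5) against mean level (horizontal axis) for the 14013 genes tested. Serinc2 at 0.76 and Gm36327 are the 2 genes called, and open circles mark the 20 genes named by rule.

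The contrast pools both groups whether or not they differ from each other, and that difference was tested on its own. Running against CUS gave 1 called gene (0.00714%) and 3287 at an unadjusted p under 0.05 (23.5%). Of the 1428 genes of the pooled contrast at that level, 313 also had a p under 0.05 in running against CUS, and 1115 did not, 551 of them higher and 564 lower than control. CUS against control gave 1 called gene (0.00714%), Gm36327, and running against control gave 3 (0.0214%), Gm36327, Serinc2 and Ccnd2, a D-type cyclin. Gm36327, kept through the controls alone, had to differ in both. These 2 comparisons share the 3 control libraries, so only their values are set side by side below. Ccnd2 had log2 differences of 0.07 in CUS and 0.60 in running.

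Gm36327 gave the smallest p of the contrast. It is a predicted protein-coding gene on chromosome 6 (47675582 to 47678797 in GRCm38.p6, the assembly behind mm10) and stands outside the naming rule. The controls had 0.79, 0.89 and 0.90 FPKM, and it was listed at 0 in each of the 6 stress-exposed libraries (limma adjusted p = 0.000704). A listed 0 can be a failed estimate, so the size of the difference is left without a fold, and the gene was kept through the controls alone. The call was lost when control replicate 1 and running replicates 1 and 3, the libraries with muscle or airway transcripts, were left out (limma adjusted p = 0.099), although the remaining controls had 0.89 and 0.90 FPKM and the others 0.

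Gm36327 lies in a tandem array beside Rn4.5s, a gene of the small 4.5S RNA (47654921 to 47655094), among other predicted genes. The 250 bases before its start are shown because the same bases stand before other genes of the array. The sequence is taken from RefSeq, GRCm38.p6, plus strand, chr6:47675332-47675581, and holds none of the 6 motifs searched below, so no letters are in capitals.
Gm36327 upstream: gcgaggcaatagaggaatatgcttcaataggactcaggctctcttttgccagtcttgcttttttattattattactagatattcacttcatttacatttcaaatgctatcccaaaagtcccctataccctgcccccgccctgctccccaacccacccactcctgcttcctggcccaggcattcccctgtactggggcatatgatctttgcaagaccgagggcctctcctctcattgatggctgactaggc
Before Gm40367, before Gm40364 and before the second start of Gm40369, the 250 bases were identical to these at 250 of 250 positions. Before the first start of Gm40369, 55 of 250 positions matched. Among all RefSeq windows searched, 4 held these bases. Reads from near-identical copies can be assigned to either, so the level of each single array gene is uncertain.

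Other genes of the array were lower as well, without passing the test. They were chosen after their values had been seen, as neighbours of Gm36327. Gm40367 (47662592 to 47665812) had 36.5, 39.1 and 37.6 FPKM in controls, 29.2, 26.8 and 28.1 in CUS and 26.3, 19.1 and 27.4 in running libraries, a log2 difference of -0.53 (limma adjusted p = 0.179, SE 0.0971). Gm40369 (47652901 to 47657148) had 22.8, 24.1 and 21.5 FPKM in controls and 13.7 to 21.04 in the 6 others, a log2 difference of -0.52. Gm40365 (47669367 to 47675070) had 16.0, 13.8 and 11.2 FPKM in controls and 4.69 to 10.4 in the others, a log2 difference of -0.81. In each of the 3 every control library lay above every stress-exposed library. Gm40364 was listed at 0 except for 2.36 FPKM in running replicate 2, and Gm40363 ranged from 0 to 5.96 FPKM with overlap of the groups.

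The FPKM of the 6 array genes were also summed, although a read moved between genes of unequal length changes such a sum. It was 76.1, 80.2 and 75.0 FPKM in controls, 61.6, 51.1 and 49.5 in CUS and 51.9, 46.7 and 51.5 in running libraries. The stress-exposed mean of 52.0 ± 5.06 FPKM (SD, n = 6) was 67.5% of the control mean of 77.1 ± 2.78 (SD, n = 3) with no overlap. No permutation p is given for this, since the genes were chosen after their values had been seen. When the sum replaced Gm36327 among the genes tested, its log2 difference was -0.57 and its limma adjusted p = 0.0585. The plot of values by library shows these genes beside Serinc2, Per2 and Gadd45g.

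**Figure D2:**
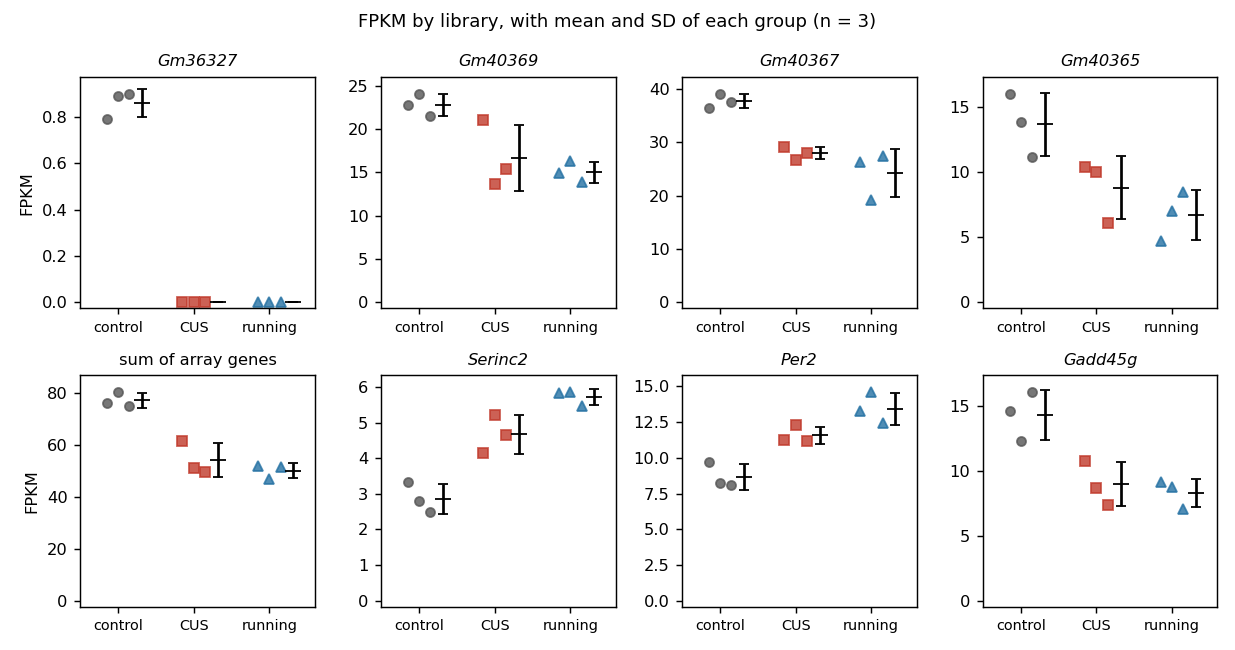
FPKM of each library for 4 genes of the chromosome 6 array, for the sum of its 6 genes and for Serinc2, Per2 and Gadd45g, by group, with mean and SD (n = 3) beside the points. The sum lies between 75.0 and 80.2 in controls and between 46.7 and 61.6 in the others.

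Serinc2 was the 1 gene that rose. Its libraries had 3.32, 2.80 and 2.48 FPKM in controls, 4.14, 5.22 and 4.65 in CUS and 5.83, 5.86 and 5.46 in running. All 6 stress-exposed libraries lay above the highest control, and the running libraries lay above the CUS libraries. The mean was 5.19 ± 0.682 FPKM (SD, n = 6) against 2.87 ± 0.424 (SD, n = 3), a log2 difference of 0.76 (limma adjusted p = 0.0457, SE 0.0929). The call was not stable: the adjusted p was 0.05 or more in 15 of 21 alternative analyses, with a range from 0.021 to 0.302, while the log2 difference kept its sign and stayed between 0.67 and 0.87. It was lost without control replicate 2 or 3 (0.238 and 0.19), without CUS replicate 2 or 3 (0.0757 and 0.0765) and without running replicate 1, 2 or 3 (0.225, 0.147 and 0.128). The log2 difference of running from CUS was 0.27 (95% interval 0.03 to 0.51, not adjusted), which did not pass over all genes (limma adjusted p = 0.166).

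Serinc2 lies on chromosome 4 (130253495 to 130279218), and no other kept gene overlaps it. The bases before its first listed start are shown because it is the 1 gene called higher outside the array. They are from RefSeq, GRCm38.p6, minus strand, chr4:130275587-130275836, and the capitals mark TGACG, the short form of the cyclic AMP response element.
Serinc2 upstream: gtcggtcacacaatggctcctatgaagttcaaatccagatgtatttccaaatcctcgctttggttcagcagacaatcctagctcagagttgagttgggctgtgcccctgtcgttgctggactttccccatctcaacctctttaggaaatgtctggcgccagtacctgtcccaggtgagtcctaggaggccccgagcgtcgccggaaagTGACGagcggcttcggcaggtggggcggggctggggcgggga
TGACG, read on both strands, stood in 25.1% of the 14378 upstream windows of 250 bases from 11159 kept genes, so its presence is common. RefSeq lists other starts of Serinc2, and the windows before them held none of the 6 motifs.

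The naming rule took 10 genes in each direction, ranked by p among genes averaging 1 FPKM or more, with the same sign in both groups and no overlap with the controls. Other than Serinc2, none of these 20 passed, and their non-overlap is a condition of the rule, not a result. The background of non-overlap was 2.68% of genes higher and 2.1% lower. All 20 kept their sign in each of the 21 alternatives. Where groups do not overlap, leaving out a library cannot turn the sign, so the rule largely fixed this in advance. Of the 20, 9 others than Serinc2 were called in at least 1 alternative. The plot of named genes gives each library.

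**Figure D3:**
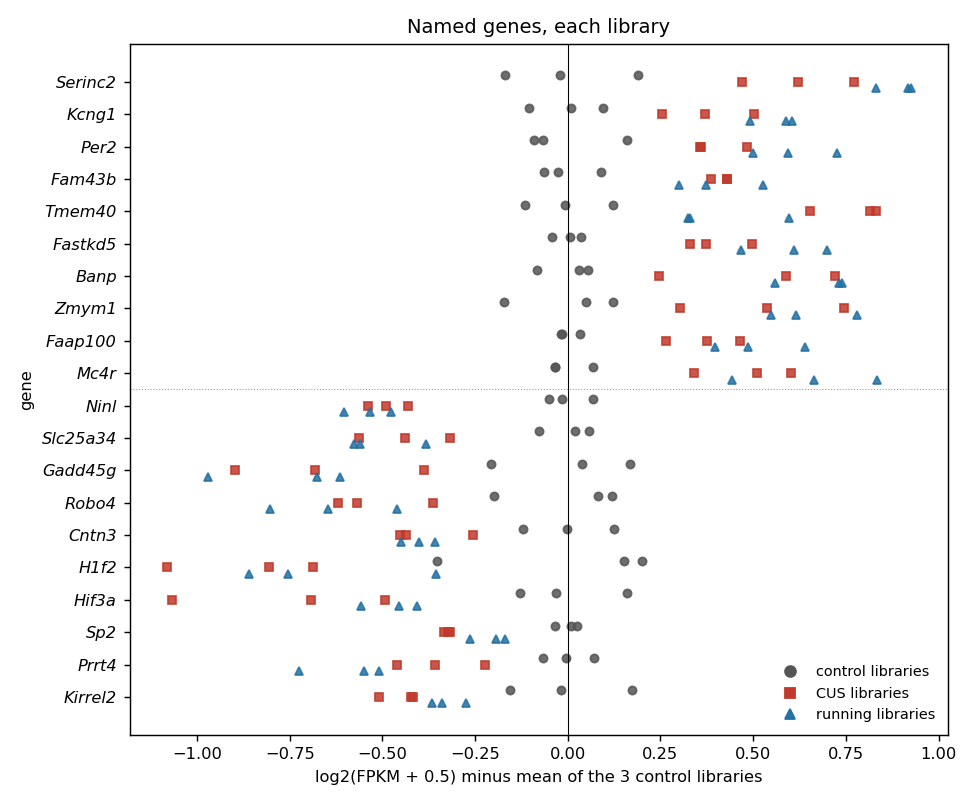
Log2(FPKM + 0.5) of each library minus the mean of the 3 controls (horizontal axis) for the 10 higher and 10 lower genes named by rule (vertical axis), with control, CUS and running libraries marked. The rule asked for no overlap, and the nearest approach is H1f2, where a control library had 5.50 FPKM and a running library 5.49.

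Among the higher genes, Per2 codes for a repressor of the circadian clock. It had 9.70, 8.22 and 8.07 FPKM in controls, 11.2, 12.3 and 11.2 in CUS and 13.3, 14.6 and 12.4 in running libraries. The stress-exposed libraries were all above the controls and the running ones highest, with a log2 difference of 0.50 (limma adjusted p = 0.092, SE 0.0747). Kcng1, a modifier subunit that joins other voltage-gated potassium channel subunits, had 10.5, 9.88 and 9.09 FPKM in controls and 11.8 to 15.2 in the others (log2 differences of 0.38 in CUS and 0.56 in running). Mc4r, a melanocortin receptor known for its part in energy balance, had 1.09, 0.98 and 0.98 FPKM in controls, 1.42, 1.80 and 1.66 in CUS and 2.2, 1.90 and 1.56 in running libraries. These are low levels, and the log2 difference of Mc4r was 0.57 (limma adjusted p = 0.179).

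Among the 10 higher genes, Fam43b had the smallest difference between running and CUS. It had 10.9, 9.77 and 10.0 FPKM in controls, 13.95, 13.94 and 13.5 in CUS and 15.0, 13.4 and 12.7 in running libraries. Its log2 differences were 0.41 in CUS and 0.40 in running, and running minus CUS was -0.01 (95% interval -0.17 to 0.14, limma adjusted p of the pooled contrast 0.0989). Tmem40, a transmembrane protein, was higher in CUS (3.37, 3.83 and 3.88 FPKM) than in running (2.59, 3.22 and 2.58), with 1.77, 2.18 and 1.95 in controls. Running minus CUS was -0.35 for Tmem40 (95% interval -0.59 to -0.11), the reverse of the order in Serinc2 and Per2.

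The other higher genes act in the nucleus or the mitochondrion. Banp, a DNA-binding protein of CpG-rich promoters, had 7.39, 7.52 and 6.79 FPKM in controls and 8.67 to 12.4 in the others, a log2 difference of 0.60 (limma adjusted p = 0.105). Zmym1, a zinc finger protein, had 7.62, 6.47 and 8.05 FPKM in controls and 9.19 to 12.99 in the others, and Faap100, a subunit of the Fanconi anaemia core complex for DNA repair, had 2.87, 2.75 and 2.76 against 3.46 to 4.63. Fastkd5, which serves the processing of mitochondrial RNA, had 1.92, 1.84 and 1.97 FPKM in controls and 2.53 to 3.41 in the others. For Banp and Zmym1 the lowest of the 6 was CUS replicate 1. Fastkd5 overlaps Ubox5 and Zmym1 overlaps Sfpq on the genome, and reads of overlapping genes may be shared, while Ubox5 and Sfpq themselves had log2 differences of -0.0038 and 0.02.

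Among the lower genes, Ninl, a centrosomal protein related to ninein, had 2.39, 2.46 and 2.64 FPKM in controls, 1.72, 1.56 and 1.63 in CUS and 1.57, 1.47 and 1.65 in running libraries. The 6 values lay within a narrow band below all controls, and the log2 difference was -0.51 (limma adjusted p = 0.092, SE 0.0768), with running minus CUS at -0.05 (95% interval -0.25 to 0.15). Slc25a34, a carrier of the inner mitochondrial membrane, had 4.64, 5.15 and 5.00 FPKM in controls and 3.14 to 3.85 in the others, a log2 difference of -0.47.

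Gadd45g and Hif3a belong to gene groups that respond to stress signals. Gadd45g, which is induced by growth arrest, DNA damage and neuronal activity, had 14.7, 12.3 and 16.1 FPKM in controls, 10.8, 8.71 and 7.42 in CUS and 9.15, 8.74 and 7.04 in running libraries. The highest stress-exposed library was below the lowest control, the log2 differences were -0.66 in CUS and -0.75 in running, and the pooled one was -0.70 (limma adjusted p = 0.151, SE 0.123). Hif3a, a subunit of the hypoxia-inducible factors and a glucocorticoid target, had 3.66, 3.39 and 4.25 FPKM in controls, 1.53, 2.13 and 2.52 in CUS and 2.39, 2.71 and 2.6 in running libraries. Its pooled log2 difference was -0.61, with -0.75 in CUS and -0.47 in running.

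Upstream bases of Gadd45g are shown because it belongs to the immediate early genes described below and its window holds a motif. They are from RefSeq, GRCm38.p6, plus strand, chr13:51846425-51846674, and the capitals mark CACGTG, the E-box that the clock factors and others bind.
Gadd45g upstream: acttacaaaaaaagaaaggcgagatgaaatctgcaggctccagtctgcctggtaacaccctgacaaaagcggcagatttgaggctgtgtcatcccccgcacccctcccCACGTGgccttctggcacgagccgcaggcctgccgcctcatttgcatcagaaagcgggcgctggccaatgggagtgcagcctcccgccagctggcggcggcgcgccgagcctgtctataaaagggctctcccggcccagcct
The E-box stood in 7.99% of all 14378 windows and before 1 of the 15 named genes that RefSeq windows matched.

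Robo4, an axon guidance family receptor of the endothelium, had 3.80, 2.95 and 3.69 FPKM in controls, 2.58, 2.08 and 2.17 in CUS and 2.03, 2.38 and 1.77 in running libraries, a log2 difference of -0.58 (limma adjusted p = 0.179). Adhesion proteins of the immunoglobulin superfamily were also among the lower genes. Cntn3, a contactin of neurons, had 5.74, 5.25 and 6.31 FPKM in controls and 4.07 to 4.74 in the others, and Kirrel2, a nephrin-like protein, had 4.20, 3.77 and 4.86 against 2.84 to 3.43. The log2 differences of both were -0.39, and in running minus CUS they had intervals from -0.22 to 0.17 and from -0.08 to 0.33.

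H1f2, a linker histone, had 5.50, 8.01 and 8.31 FPKM in controls, 4.26, 3.12 and 3.88 in CUS and 4.04, 5.49 and 3.72 in running libraries. Control replicate 1 was only just above running replicate 2, and the log2 difference was -0.76 (limma adjusted p = 0.179, SE 0.149). Transcripts of this kind of histone mostly lack a poly(A) tail, and these libraries were made from polyadenylated RNA. Sp2, a zinc finger factor of the Sp family, had 8.50, 8.40 and 8.13 FPKM in controls and 6.52 to 7.36 in the others, a small log2 difference of -0.27. Prrt4, a proline-rich transmembrane protein, had 1.56, 1.67 and 1.47 FPKM in controls, 1.27, 1.11 and 1.00 in CUS and 0.95, 0.91 and 0.75 in running libraries.

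Of the 20 named genes, 5 had an unadjusted limma p under 0.05 in running against CUS, beside 23.5% of all genes. They were Serinc2, Kcng1, Per2, Tmem40 and Prrt4. For the other 15 the 95% intervals of running minus CUS contained 0, which does not show that the groups were alike. The 20 lay on 10 chromosomes with no pair within 1 Mb. Within 50 kb of them stood 49 kept neighbours, of which 5 had an unadjusted p under 0.05, beside 10.2% of all genes. Those were Erfe beside Per2, Gins1 beside Ninl, Tmem82 beside Slc25a34, Hepacam beside Robo4 and Impdh1 beside Prrt4. Each was lower, with log2 differences from -0.51 (Tmem82) to -0.11 (Impdh1). Erfe was kept through the controls alone, so it had to be lower.

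Motifs were counted on both strands in the 250 bases before each start, not in the 50 bases after it. AGAACA, the core of a glucocorticoid receptor site, stood before Fastkd5 and Sp2 (2 of 15, and 10.9% of all windows). TGACG stood before Serinc2, Faap100, Tmem40 and Sp2 (4 of 15), and TGACGTCA, the full element that contains it, before none of the 15 (2.44% of all windows). TGANTCA, the AP-1 site, stood before Tmem40 (4.49% of all windows), and CACGCG, a Notch effector site, before none (13.5%). A gene with several listed starts has several windows, and a match is a run of letters only.

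Gene lists of pathways and cell types were then described by their counts and medians. In each of the 37 lists 0 members were called by limma, and neither Serinc2 nor Gm36327 is in a list. Beside them stand the values of all genes, a median of 0.0036 and 10.2% at an unadjusted p under 0.05. The 4 lowest medians belonged to myelin, mural cells, glucocorticoid-induced genes and endothelium, and the highest to blood cells. The plot of list medians shows that the CUS and running medians, which share the controls, lay close together for myelin, mural and endothelial genes and far apart for immediate early, ribosomal and respiratory genes.

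**Figure D4:**
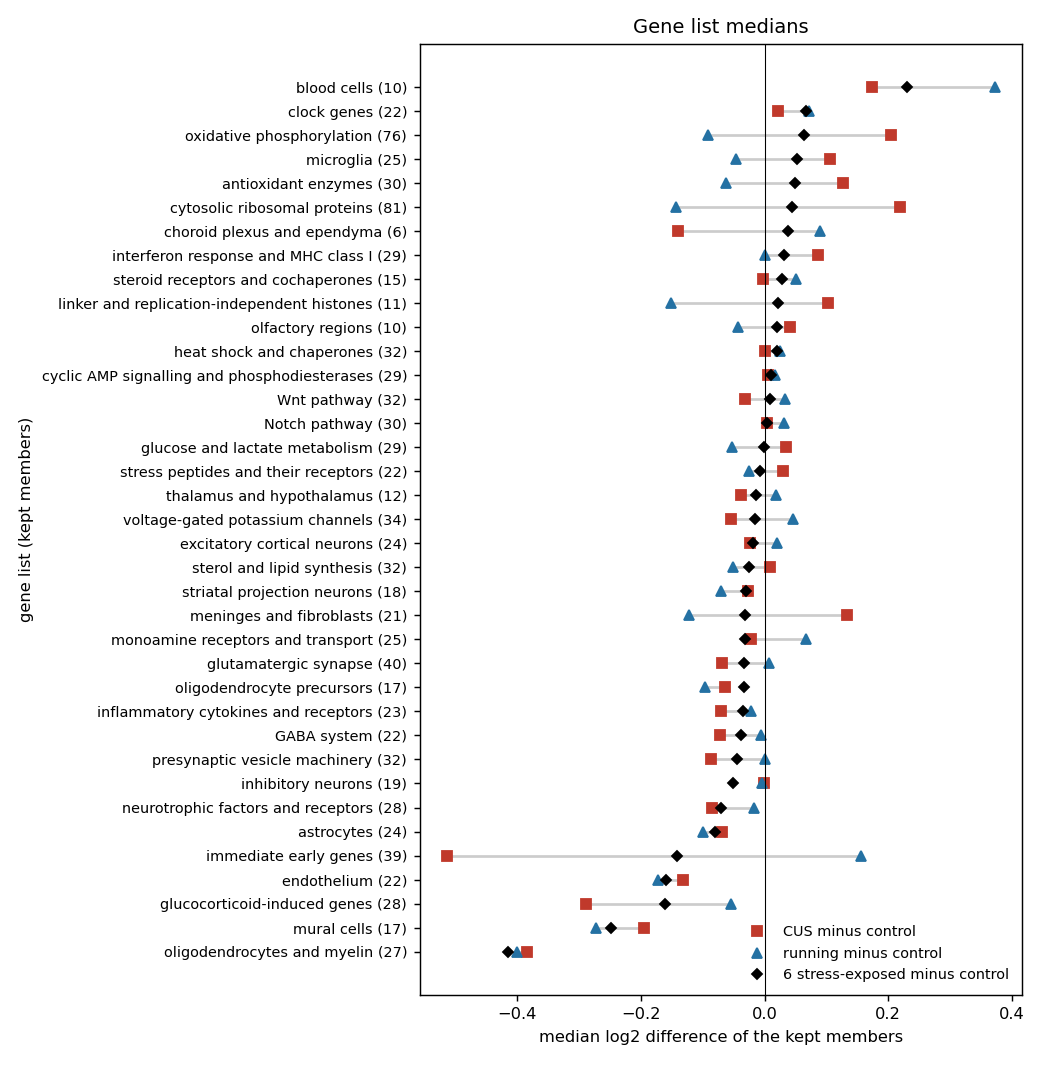
Median log2 difference (horizontal axis, log2 of FPKM + 0.5) of the kept members of each gene list, for CUS minus control, running minus control and the 6 stress-exposed minus control libraries, with the number of kept members in brackets. Myelin lies lowest at -0.42, and for immediate early genes the CUS median is -0.51 and the running median 0.16.

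Of 27 genes of oligodendrocytes and myelin, the sheath that glia lay around axons, 27 had a value below control and 19 an unadjusted p under 0.05. The median log2 difference was -0.42, with -0.38 in CUS and -0.40 in running. Mobp, a myelin protein, had 31.5, 30.4 and 56.9 FPKM in controls, 26.5, 20.7 and 16.7 in CUS and 25.5, 27.0 and 22.9 in running libraries, a log2 difference of -0.71 (limma adjusted p = 0.285, SE 0.19). Myrf, the transcription factor of myelination, had 4.64, 4.94 and 7.95 FPKM in controls and 3.01 to 4.64 in the others, and Enpp6, a marker of newly formed oligodendrocytes, had 0.76, 0.96 and 0.98 against 0.27 to 0.70. For Mobp and Enpp6 all controls were above all others, and for Myrf control replicate 1 equalled running replicate 1.

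Control replicate 3 had the largest part of the myelin level. The list score, which averages the members after each was centred on its own 9 libraries, was 0.63 there, 0.01 and 0.11 in the other controls, 0.17, -0.28 and -0.25 in CUS and -0.02, -0.16 and -0.21 in running libraries. CUS replicate 1 thus lay above control replicates 1 and 2. Without control replicate 3 the median was -0.19, Mobp had -0.43 and Myrf -0.25, and without control replicate 3 and CUS replicate 3 the median was -0.15. The same library had the high Ttr, and the 6 kept genes of choroid plexus and ependyma summed to 65.4 to 299.9 FPKM in controls and 70.3 to 115.4 in the others. Their part in the myelin result was not tested. Oligodendrocyte precursor genes had a median of -0.03, with 12 of 17 lower, and Bcas1, of early myelinating cells, had a log2 difference of -0.51, which was -0.24 without control replicate 3.

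Vascular genes had values below control with smaller medians. Of 17 mural cell genes, of pericytes and smooth muscle around vessels, 17 were below control and 6 had an unadjusted p under 0.05, with a median of -0.25 (-0.20 in CUS and -0.27 in running). Of 22 endothelial genes 19 were below control and 4 had such a p, with a median of -0.16 (-0.13 and -0.17). By group, 9 of the 22 were above control in CUS and 0 in running. In running against CUS 7 of them had an unadjusted limma p under 0.05, all lower in running, beside 23.5% of all genes in either direction. Pecam1, an adhesion protein of endothelial junctions, had 7.26, 6.95 and 6.81 FPKM in controls, 5.96, 5.44 and 3.86 in CUS and 4.13, 5.79 and 4.43 in running libraries, without overlap, and a log2 difference of -0.48 (limma adjusted p = 0.285, SE 0.128). Esam, of the same junctions, had 6.98, 7.21 and 7.87 FPKM in controls and 5.13 to 7.36 in the others, with overlap through running replicate 2.

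The vascular scores differed between libraries of 1 group. The endothelial score was 0.18 in running replicate 2 and -0.23 and -0.24 in running replicates 1 and 3, the 2 libraries with airway transcripts. It was -0.24 in CUS replicate 3 and 0.13 and 0.08 in the other CUS libraries, against 0.07 to 0.13 in controls. The mural score was 0.15 to 0.27 in controls and -0.33 to 0.10 in the others, without overlap. Without control replicate 1 and running replicates 1 and 3, the endothelial median was -0.04 and the mural one -0.16, and without control replicate 3 and CUS replicate 3 they were -0.09 and -0.17. Summed mural levels were 108.6 to 111.6 FPKM in controls and 77.6 to 110.9 in the others. Des, desmin of muscle and mural cells, had 5.60 FPKM in control replicate 1, the library with muscle transcripts, and 0.41 to 1.38 in the rest, and its log2 difference of -1.15 was -0.50 without that library.

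**Figure D5:**
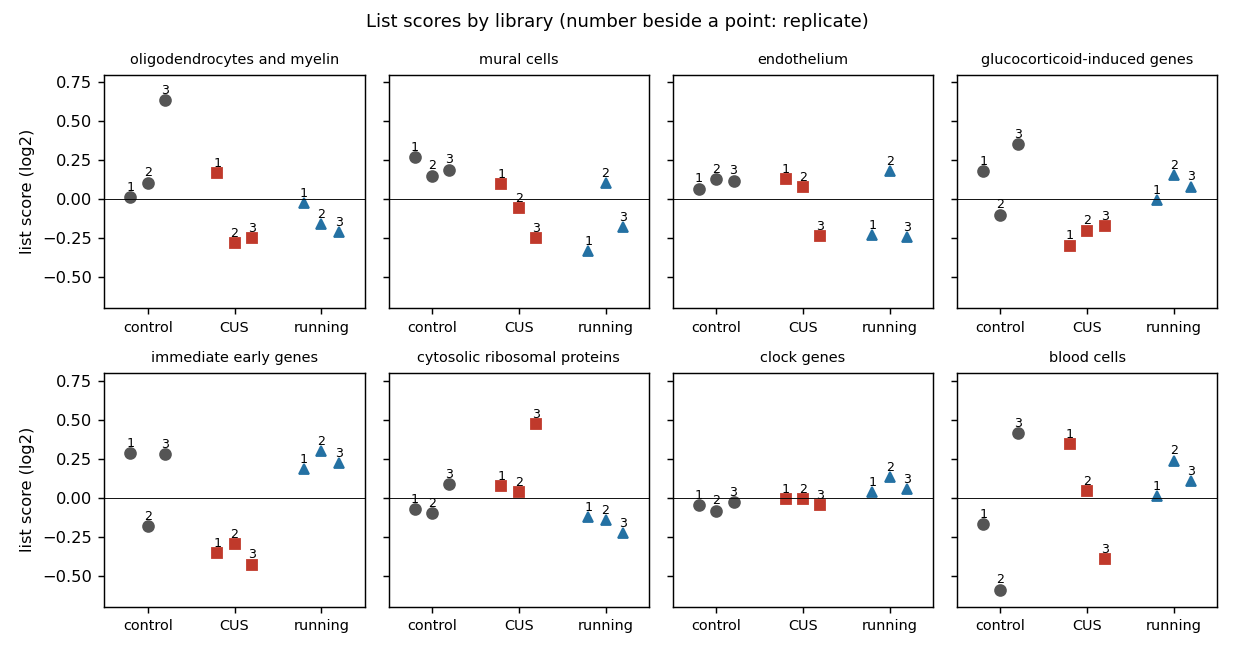
List score (vertical axis, log2, mean of members relative to their mean over 9 libraries) of each library for 8 gene lists, by group, with the replicate number beside each point. Control replicate 3 is highest for myelin at 0.63, and the 3 mural control scores, from 0.15 to 0.27, lie above the 6 others.

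Glucocorticoid-induced genes, the targets that corticosteroid receptors switch on, were mostly below control. Of 28 members 23 were below control and 5 above, 9 lower and 1 higher member had an unadjusted p under 0.05, and the median was -0.16. The 2 groups were unlike, with medians of -0.29 in CUS and -0.05 in running. Hif3a is described above. Plin4, which coats lipid droplets, had 3.36, 1.88 and 4.95 FPKM in controls, 0.64, 1.48 and 1.17 in CUS and 1.37, 2.00 and 1.77 in running libraries, with overlap at control replicate 2, and a log2 difference of -0.99 (limma adjusted p = 0.246, SE 0.242). Galnt15, a glycosyltransferase, had 1.4, 1.07 and 1.48 FPKM in controls and 0.61 to 1.09 in the others.

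Values of 2 other members, chosen after they were seen, had opposite signs in the groups. Fkbp5, the cochaperone that dampens the receptor, had log2 differences of -0.12 in CUS and 0.41 in running, and Sgk1, a kinase, had -0.40 and 0.13. The glucocorticoid score was 0.18, -0.10 and 0.35 in the controls and -0.30 to 0.16 in the others. Without control replicate 3 the median was -0.08, and without control replicate 2 it was -0.29. Of the 15 steroid receptors and cochaperones 8 were above control, with a median of 0.03, and Hsp90ab1 and Hspa8, the most abundant members, had log2 differences of -0.04 and 0.05.

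Immediate early genes, which neuronal activity switches on, had a pooled median between those of 2 unlike groups. Of 39 members 32 were below control in the pooled contrast, with a median of -0.14, while the median was -0.51 in CUS and 0.16 in running. Running minus CUS had an unadjusted p under 0.05 for 30 members in the higher and 2 in the lower direction, beside 23.5% of all genes in either. Gadd45g, Zfp36 and Ier2 were members with values below control in both groups. Zfp36, which binds and destabilises messenger RNA, had 3.49, 3.70 and 3.05 FPKM in controls, 2.64, 1.70 and 1.89 in CUS and 2.28, 2.71 and 2.23 in running libraries, without overlap, a log2 difference of -0.52 (limma adjusted p = 0.237, SE 0.118). Ier2 had 11.1, 7.61 and 11.6 FPKM in controls, 6.04, 5.66 and 3.72 in CUS and 8.30, 7.46 and 7.57 in running libraries, with overlap at control replicate 2. The score of that control was -0.18 against 0.28 in both others, and without it the pooled median was -0.31.

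The genes of the lists with the clearest opposite signs in the 2 groups show what the pooled contrast averages out. Grp, a neuropeptide precursor, had 20.9, 20.6 and 20.3 FPKM in controls, 24.7, 24.2 and 29.7 in CUS and 15.7, 15.6 and 11.99 in running libraries. All CUS libraries were above and all running libraries below the controls, and the pooled log2 difference was -0.09. Cd68, a lysosomal protein of microglia, had 9.18, 8.08 and 9.03 FPKM in controls, 9.66, 9.44 and 9.51 in CUS and 6.81, 7.21 and 7.18 in running libraries, with a pooled difference of -0.09. Egr4, Nr4a1 and Dusp5, immediate early genes, had pooled differences of -0.11, -0.20 and -0.12, made of -0.50, -0.64 and -0.54 in CUS and 0.27, 0.24 and 0.30 in running. These 5 were picked by the rule for opposite signs, and their values are a description.

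Clock genes were the list with the most members that did not overlap with controls. Of 22 members 16 were above control, with a median of 0.07 (0.02 in CUS and 0.07 in running), and 5 did not overlap, all higher, beside 2.68% of all genes higher without overlap, namely Per2, Cry2, Nr1d2, Bhlhe41 and Csnk1e. Bhlhe40, a repressor that acts on the same E-box sites, had 51.1, 41.7 and 45.2 FPKM in controls, 48.7, 60.0 and 55.5 in CUS and 68.0, 75.2 and 71.8 in running libraries. It overlapped through CUS replicate 1, and its log2 difference was 0.44 (0.25 in CUS and 0.64 in running, limma adjusted p = 0.151). Nr1d2, a nuclear receptor that represses Arntl, had 25.2, 25.1 and 24.5 FPKM in controls, 26.9, 27.6 and 28.8 in CUS and 28.8, 28.2 and 27.1 in running libraries, a small difference of 0.16 in both groups pooled. Npas2, an activator of the clock, was on the other side with -0.16, and Arntl, its partner, had -0.13. The labels give no time of day at which tissue was taken.

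Lists of synapse and signalling genes had medians near that of all genes. The glutamatergic synapse had 28 of 40 members below control with a median of -0.03, presynaptic vesicle machinery 27 of 32 with -0.04, and the GABA system 17 of 22 with -0.04. In each of them the CUS median was lower (-0.07, -0.09 and -0.07) and the running median near 0 (0.0079, 0.00092 and -0.0053). Members without overlap, beside 4.77% of all genes, were 1 in each of these 3 lists, namely Dlg3, a scaffold, higher at 0.09, Rims2, of the active zone, lower at -0.11, and Gabrb1, a GABA-A receptor subunit, lower at -0.15. Gabrb1 had 12.1, 12.8 and 11.3 FPKM in controls and 10.4 to 11.3 in the others, so its nearest libraries almost met.

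Receptors and ligands with values alike in both groups were few. Wnt7a, a secreted Wnt ligand, had 1.95, 2.04 and 1.67 FPKM in controls, 2.6, 2.90 and 2.75 in CUS and 2.21, 2.79 and 2.35 in running libraries, a log2 difference of 0.38 (limma adjusted p = 0.246, SE 0.0898). Wnt4, another ligand, had 8.24, 8.36 and 8.06 FPKM in controls and 8.77 to 13.2 in the others, with log2 differences of 0.34 in CUS and 0.34 in running. Over the Wnt list 18 of 32 members were above control and the median was 0.0094. Hes5, a repressor downstream of Notch, was higher chiefly in CUS (0.71, and 0.14 in running), and the Notch list had 15 of 30 members above control. Among receptors of monoamines Htr3a, a serotonin-gated channel, and Adra2c, an adrenergic receptor, did not overlap, at 0.28 and 0.17. They were 2 of 25 kept members of the monoamine list, beside 4.77% of all genes without overlap.

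Phosphodiesterases break down cyclic AMP. Pde7b had 6.60, 6.69 and 6.64 FPKM in controls, 3.97, 3.74 and 4.40 in CUS and 5.17, 5.19 and 6.91 in running libraries, where running replicate 3 was above the controls. Its pooled log2 difference was -0.43 (-0.66 in CUS and -0.20 in running). Rapgef3, a cyclic AMP sensor, had -0.27 and Pde10a, a striatal phosphodiesterase, -0.25. Without control replicate 2, the library with a striatal score of 0.26, Pde10a had -0.14. Of the cyclic AMP list 16 of 29 members were above control and their median was 0.0099.

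Respiratory and ribosomal genes were above control in number but not in size. Of 76 oxidative phosphorylation genes 68 were above control with a median of 0.06, and of 81 cytosolic ribosomal protein genes 63 were above it with a median of 0.04. These are sums of opposite parts, 0.20 in CUS and -0.09 in running for the first and 0.22 and -0.14 for the second. The pooled medians without CUS replicate 3 were 0.0081 and -0.02. Members at an unadjusted p under 0.05 numbered 1 (Ndufb4, log2 0.19) and 0, beside 10.2% of all genes. Members without overlap numbered 0 and 0, beside 4.77%.

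Metabolic and chaperone genes included some without overlap, beside 2.68% of all genes higher and 2.1% lower. They were 2 of 29 glucose and lactate genes (lower), 1 of 32 sterol and lipid genes (higher) and, of 32 chaperones, 3 higher and 1 lower. Pygm, glycogen phosphorylase of muscle and astrocytes, had 23.4, 11.4 and 14.3 FPKM in controls and 9.19 to 10.1 in the others, and Slc16a3, a lactate exporter, had 1.79, 1.2 and 1.77 against 0.83 to 1.14. Control replicate 1, which held the muscle transcripts, was the highest for both, and without it the log2 differences moved from -0.70 to -0.42 and from -0.51 to -0.44. Cryab, a small heat shock protein of glia and muscle, had 55.3, 52.4 and 71.7 FPKM in controls and 45.1 to 51.5 in the others, a difference of -0.30 that was -0.16 without control replicate 3. Dnajb4, an inducible cochaperone, was above control at 0.22, and Elovl6, which lengthens fatty acids, at 0.17.

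The remaining lists held few members without overlap. Antioxidant enzymes had 21 of 30 members above control with a median of 0.05, and their CUS and running medians were 0.13 and -0.06. Interferon response genes had 18 of 29 above control (median 0.03), and inflammatory cytokines and their receptors had 17 of 23 below it (median -0.03). Rela, a subunit of the inflammatory factor NF-kappaB, had 10.6, 10.6 and 12.1 FPKM in controls and 9.25 to 9.67 in the others, a log2 difference of -0.22 (limma adjusted p = 0.285). It was the 1 of the 23 inflammatory members without overlap, beside 4.77% of all genes. Neurotrophic factors had 19 of 28 members below control (median -0.07), stress peptides and their receptors 11 of 22 (-0.0071), and potassium channels, which include Kcng1, 20 of 34 (-0.02).

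Red cell transcripts were higher in stress-exposed libraries without passing the test in the main analysis. Hbb-bs, an adult beta-globin, had 193, 144 and 264 FPKM in controls, 245, 314 and 238 in CUS and 322, 357 and 356 in running libraries, and overlapped through control replicate 3. Its log2 difference was 0.63 (0.44 in CUS and 0.83 in running, limma adjusted p = 0.246), and 0.42 without control replicate 2. Hbb-bt, a near-identical gene between which reads may be split, had 0.51, and Alas2, the haem synthesis enzyme of red cell precursors, 0.65. Hbb-bt passed in 1 of 21 alternatives, the one without control replicate 3 and CUS replicate 3 (0.71, limma adjusted p = 0.0293). Of the 10 kept blood genes 6 were above control with a median of 0.23, and without control replicate 3 it was 0.66. The score of the list was 0.42 in control replicate 3 and -0.59 in control replicate 2.

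Markers of neurons and of the remaining glia had medians near that of all genes. Excitatory cortical neurons had 11 of 24 members above control and a median of -0.02, and inhibitory neurons 8 of 19 and -0.05. Astrocytes had 19 of 24 below control with a median of -0.08, which was -0.0088 without control replicate 3, and Gfap, their intermediate filament, had 32.2, 27.6 and 36.4 FPKM in controls and 20.1 to 30.5 in the others. Microglia had 15 of 25 above control with a median of 0.05, which was 0.11 in CUS and -0.05 in running. P2ry12, their purinergic receptor, was the 1 of 25 members without overlap, beside 4.77% of all genes. It had 12.9, 13.6 and 13.6 FPKM in controls and 14.4 to 18.4 in the others. The summed levels of excitatory markers were 2314 to 2382 FPKM in controls and 2301 to 2479 in the others, and those of microglia 432 to 475 and 408 to 557.

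Markers of neighbouring brain regions were described in the same way. Striatal projection neuron genes had 12 of 18 members below control and a median of -0.03. Of the 18, 5 had an unadjusted limma p under 0.05, all lower, beside 10.2% of all genes in either direction. Without overlap were 2, lower, beside 2.1% of all genes lower. Syndig1l, of striatal neurons, had 1.39, 2.28 and 1.4 FPKM in controls and 0.64 to 1.14 in the others. The striatal score was 0.26 in control replicate 2 and -0.11 to 0.05 in the other libraries. Thalamus and hypothalamus, olfactory regions and meninges had medians of -0.01, 0.02 and -0.03, and the meningeal score ranged from -0.38 to 0.37 within the stress-exposed libraries. Dcx, of immature neurons, had 4.76, 5.61 and 4.96 FPKM in controls and 3.50 to 4.92 in the others, a log2 difference of -0.31. Their part in the other results was not tested.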

How the data were processed

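Per the labels' protocols, polyadenylated RNA of mPFC tissue was reverse transcribed with random primers, and nothing there marks the strand, so antisense genes cannot be told apart. The authors deposited FPKM values, rounded to 2 decimals. DESeq2 1.4.5, RSEM 1.2.12, Bowtie2 2.2.5 and mm10 are named, per the submitters' processing notes; what each was used for, and the annotation, is not given in the sources used here. FPKM holds no counts, so the depth is unknown and no counting interval could be given.

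Values were analysed as log2(FPKM + 0.5), and fold changes on this scale understate those of low genes. R 4.3.3 with limma 3.58.1 fitted 1 mean per group to all 9 libraries (6 residual degrees of freedom, prior 4.71), with an intensity trend, the contrast being the mean of both stress-exposed groups minus control, and Benjamini-Hochberg adjustment over 14013 genes. The code was tested on simulated data. Of the genes, 13984 matched a RefSeq position.

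Named were the 10 genes in each direction with the smallest p, a mean of at least 1 FPKM, equal signs in both groups and no overlap, passing over predicted, Riken and Y-linked genes; up to 3 genes of a list with an unadjusted p under 0.05, otherwise the 2 most abundant; and 5 list genes of opposite signs. Other genes named, among them Fkbp5, Sgk1, Arntl and those without overlap in a list, were chosen after their values were seen. The members and lists were chosen with earlier results of these data known. Alternatives were the pseudocount, filter, scaling, variance model, library weights, a 2-group model and leaving out each library. Added after seeing the data were the removal of a trend in transcript length and GC content, leaving out libraries that stood apart, and the summed array genes. The labels give no sequencing batch or date.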

Additional observations from a re-analysis of the deposited data

Results flagged for a closer look

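The score of stress peptides and their receptors was 0.1591 in CUS replicate 3, far above the other 5 stress-exposed libraries, of which the nearest had -0.0016. Its gap was 0.774 of the range, above Dixon's critical value for 6 libraries. There were 60 measures checked in this way, and chance picks out about 1 in 20. The list holds Sst, Npy, Vip and Cck, and CUS replicate 3 also had the highest sum of FPKM values.

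In 4 lists the score lay on opposite sides of control in the 2 stress-exposed groups, with every library of one group above the control mean and every library of the other below it; these differences between groups were not tested for the scores. In each of the 4 lists, libraries of 1 or both of these groups still lay within the range of the control libraries. Immediate early scores were 0.28, -0.18 and 0.28 in controls and 0.18, 0.30 and 0.22 in running libraries. For immediate early genes the CUS mean was -0.488 and the running mean 0.108 relative to control, a difference of 0.596. For voltage-gated potassium channels they were -0.059 and 0.066, a difference of 0.125. For cytosolic ribosomal proteins they were 0.222 and -0.138, a difference of -0.360. CUS replicate 3 carried much of that CUS mean, with a ribosomal score of 0.47 against 0.07 and 0.04 in the other CUS libraries. For microglia they were 0.130 and -0.047, a difference of -0.177. The microglial scores were 0.25 in CUS replicate 3 and 0.08 and -0.03 in the other CUS libraries. Those of the controls were -0.07, -0.04 and 0.03, and those of the running libraries -0.13, -0.04 and -0.05.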

How the results depend on the processing

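FPKM holds no depth, and the 3 controls enter every contrast with control, so the number of libraries limits precision. No paired analysis was possible because the labels give no replicate numbers that are shared between groups; numbers follow accession order. With the pseudocount at 0.1 or 1 the counts of called genes were as reported, 1 higher and 1 lower. Higher and lower counts were 0 and 0 with a filter at 1 FPKM, where Gm36327 was not tested, 0 and 1 without a filter, rescaled to TPM or with quantile normalization, 0 and 2 without the intensity trend, 0 and 1 in a 2-group model, 8 and 4 with library weights, and 2 and 1 after removal of a length and GC trend. The counts were 1 and 0 without the libraries with muscle or airway transcripts, where the gene called higher was not Serinc2 (limma adjusted p = 0.302). They were 1 and 1 without control replicate 3 and CUS replicate 3, where Hbb-bt passed (limma adjusted p = 0.0293) and Serinc2 did not (0.185). Without CUS replicate 3 alone, 1 gene was called higher, again not Serinc2 (0.0765). Leaving out 1 library gave 0 to 5 higher and 1 to 3 lower, with 5 and 3 without CUS replicate 1, 2 higher without control replicate 1 and 0 higher without control replicate 2 or 3, CUS replicate 2 or any running replicate.

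For CUS against control the count was 0 with the filter at 1 FPKM, 8 with weights, 0 without the libraries that stand apart (control replicate 3 and CUS replicate 3) and 1 to 6 without 1 library. For running against control it was 1 without a filter, 7 without the trend, 7 with length and GC removed, 147 with weights, 0 without the muscle or airway libraries and 1 to 10 without 1 library. For running against CUS it was 0 without a filter, with length and GC removed and without either set of libraries, 3 with TPM, 2 with quantile normalization, 2178 with weights, and 0 to 1518 without 1 library, with 21 without control replicate 2 and 1518 without CUS replicate 2. The cause was not tested. The planned length and GC values from RefSeq transcripts were not run; GENCODE transcripts served instead.

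Of the differences of named genes in all alternatives, 2205 kept direction and side of the threshold, 17 lost a call, 14 gained one and 30 changed sign, all of uncalled genes. With library weights these were Ptgds (-0.11) and Enpp2 (0.0027). Without the muscle or airway libraries they were Ttr (-0.68), Calb2 (0.085), Egr4 (0.073) and Dusp5 (0.016). Without the libraries that stand apart they were Ptgds (-0.37), Mgp (-0.058), Enpp2 (0.10) and Calb2 (0.032). With 1 library left out, the lowest and highest differences of the genes that changed sign were Ttr -0.77 to 1.78, Ptgds -0.21 to 0.28, Enpp2 -0.16 to 0.13, Mgp -0.048 to 0.22, Calb2 -0.082 to 0.078, Egr4 -0.27 to 0.025, Hspa8 -0.012 to 0.091, Rpl41 -0.12 to 0.022, Rplp1 -0.0049 to 0.14, Rora -0.068 to 0.0027. Of list medians 755 moved by less than the spread between replicates and 22 by more. Changes of sign were not part of that count. The medians of cyclic AMP and of thalamus and hypothalamus genes kept their sign in 14 of 21 alternatives, and several others near 0 also changed it. Those of myelin, mural, endothelial, glucocorticoid-induced, immediate early and blood genes kept it in all 21. So did those of other lists with small medians, among them clock, GABA, astrocyte and microglial genes.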

Other observations

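Gm2506, a predicted gene outside the naming rule and chosen after its values were seen, had the largest positive difference among the genes at an adjusted p under 0.1. It had 1.12 FPKM in control replicate 1 and was listed at 0 in the other controls, with 3.85, 6.45 and 8.72 FPKM in CUS and 3.44, 5.19 and 2.30 in running libraries (limma adjusted p = 0.0863). With 2 controls listed at 0 it has no fold.

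Among the other genes kept through the controls alone, Apoa1, an apolipoprotein of plasma lipid particles, had 0.53, 0.52 and 0.83 FPKM in controls and 0.06 to 0.48 in the stress-exposed libraries. Erfe, the erythroid hormone that lowers hepcidin, had 0.61, 0.52 and 0.78 FPKM in controls and 0.19 to 0.40 in the others. Both had to differ by the way they were kept.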
